A study of Mus musculus with 10 samples.

Results

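The 10 genes described here belong to the canonical Wnt pathway and were examined in mouse articular cartilage with and without the microRNA gene Mir324. They were the Dishevelled genes Dvl1, Dvl2 and Dvl3, the co-receptor genes Lrp5 and Lrp6, the scaffold genes Axin1 and Axin2, the β-catenin gene Ctnnb1, and the transcription factor genes Lef1 and Tcf7. They were taken by name from the 35705 genes of the table, and all 10 were among the 13841 genes with enough signal to be tested. RNA came from the medial knee cartilage caps of 5 wild-type control mice and 5 Mir324-null mice, 1 library per mouse, with no treatment. The age, sex and strain of the mice and the way the null allele was made were not stated in the labels. Abundance was given as TPM, a relative abundance that corrects each transcript for its length and forces every library to the same total of 1000000. The sequencing depth is therefore unknown.

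Canonical Wnt signalling begins when a Wnt ligand joins a Frizzled receptor to Lrp5 or Lrp6 at the cell surface. Dishevelled proteins are then recruited to the receptor and bring Axin with them, which disables the destruction complex that otherwise marks β-catenin for degradation. β-catenin accumulates, enters the nucleus and turns on genes through Lef1, Tcf7 and their relatives, and Axin2, which feeds back on the pathway, is widely read as such a target. In the joint, Wnt signalling is known for its part in bone formation and in keeping chondrocytes in their articular state. MicroRNAs repress messenger RNAs mainly through matches in the 3′ UTR to their seed, bases 2 to 8 of the mature strand.

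Mir324 lies within the annotated span of Dvl2, so the sequences at that locus come first. The hairpin occupies 89 bases of the plus strand, chr11:70012043-70012131 in GRCm38, inside the gene span of Dvl2 (ENSMUSG00000020888, chr11:70000595-70012301, plus strand). Its mature strands are shown from RefSeq (GRCm38.p6) with the seed in capitals, because the site search that follows rests on it:
miR-324-5p: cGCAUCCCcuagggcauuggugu
miR-324-3p: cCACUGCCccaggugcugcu

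The seeds call for GGGATGC (miR-324-5p) and GGCAGTG (miR-324-3p) in a target, searched on the transcript strand of every annotated coding transcript of the 10 genes. No member held the miR-324-5p match in a 3′ UTR. The miR-324-3p match occurred in Dvl2 and in Lrp6 and in none of the other 8 genes, and both sites are shown with the match in capitals and flanking transcript bases in lower case:
Dvl2: ttctttgcgaggcaGGCAGTGgag
Lrp6: tgcttgtgctgagtGGCAGTGgcc

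For reference, the longest 3′ UTR of the 12596 tested genes with a coding transcript held the miR-324-5p match in 8.5% and the miR-324-3p match in 15.4% of genes, beside 0 of 10 and 2 of 10 members. The Lrp6 site is at chr6:134448664-134448670 on the minus strand, at base 2116 of the 4310-base 3′ UTR of Lrp6-201, the main coding transcript of that gene. The Dvl2 site is at chr11:70010147-70010153 on the plus strand, at base 555 of the 2610-base 3′ UTR of Dvl2-207. The main coding transcript Dvl2-201 ends at base 70010111 of chromosome 11, which is 36 bases before the first base of that site. Its 3′ UTR of 519 bases therefore lacks it. Dvl2-201 also ends before the hairpin, which starts at base 70012043. Only Dvl2-202, annotated as subject to nonsense-mediated decay, and Dvl2-207 reach past the site, and their spans cover the hairpin. Together they held 2.70% to 10.9% of Dvl2 TPM in the 10 libraries. The mean of that share was 6.27% ± 3.82 in wild-type and 4.72% ± 1.66 in null mice (SD, n = 5 each). Each of these transcripts stood at 0.0927 to 0.351 TPM in wild-type and 0.0857 to 0.255 TPM in null libraries, and their values were identical within each library. How the null allele alters this stretch was not stated. A changed sequence of these transcripts therefore cannot be told apart from a changed level. A sequence match describes the annotation and is not a measured binding site. Strand use in the counting was not stated, so reads from Acadvl, which overlaps these long transcripts on the opposite strand, cannot be told apart from theirs.

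Before the members are compared, some facts on the libraries bear on them. On the first principal component, wild-type replicate 1 stood away from the 9 others (-54.8, against -12.1 to 30.1). Markers of cells other than chondrocytes were abundant, those of neutrophils among them, at 55632 to 109003 TPM in wild-type and 54585 to 111430 TPM in null libraries. Osteoblast and osteocyte markers summed to 5230 to 12713 TPM in wild-type and 2990 to 5971 TPM in null libraries, with all 10 genes of that list lower on average in null mice. Erythroid markers summed to 112640 to 198844 and 159238 to 263631 TPM, with all 7 genes of that list higher on average in null mice. Markers of precursor B cells, which use Lef1, summed to 523 to 641 and 287 to 579 TPM, those of T cells, which use Tcf7, to 57.3 to 134 and 78.3 to 92.8 TPM, and those of endothelium to 72.9 to 90.3 and 52.2 to 79.8 TPM. Markers of cartilage chondrocytes, the labelled cell type, summed to 803 to 2192 and 805 to 1167 TPM, while Matn1, Matn3 and Col9a1 of that list stayed under the filter of 1 TPM. Of its 7 tested genes, 6 were lower in null mice (median log2 change -0.66, and -0.48 without wild-type replicate 1), 5 of them at an unadjusted p under 0.05 and none at an adjusted one. In such bulk tissue, fewer cells of a type and less RNA per cell cannot be told apart.

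Across all genes tested, limma with Benjamini-Hochberg adjustment called 0 of 13841 at an adjusted p under 0.05 (0% called, smallest adjusted p 0.277), and none of the 10 members passed. At an unadjusted p under 0.05, 1603 genes were found, 11.6% of those tested, of which 7.30% of all genes were lower and 4.28% higher in null mice. Lrp5 and Ctnnb1 were the members among them, both lower. Estimates were below 0 for 8 of the 10 members (6 without wild-type replicate 1, and 6 to 7 under other scalings). Of all genes, 60.0% were below 0 (8307 genes, with 7461 without wild-type replicate 1 and 5876 to 6828 under other scalings). The median log2 change was -0.14 for the members and -0.045 for all genes. Under other scalings these medians were -0.095 to -0.057 and 0.003 to 0.036, and the members' median was -0.060 without null replicate 4 and -0.23 without null replicate 3. Changes are given as null minus wild-type on the log2(TPM + 1) scale, which understates the change of low genes.

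Summed over all their transcripts, the Dishevelled genes were present at unequal levels, with Dvl1 highest and Dvl2 lowest, and this order was alike in both genotypes. Dvl1 made up 49.4% ± 4.9 of their summed TPM in wild-type and 49.5% ± 3.7 in null mice, Dvl3 31.0% ± 3.3 and 29.9% ± 2.4, and Dvl2 19.6% ± 3.23 and 20.6% ± 2.39 (SD, n = 5 each). TPM of Dvl2 was below that of Dvl1 and below that of Dvl3 in all 10 libraries. All 3 proteins pass the signal from the receptor to Axin.

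Dvl2, whose annotated span holds the hairpin, stood at 6.45, 6.79, 5.33, 6.65 and 5.87 TPM in wild-type replicates 1 to 5. It stood at 5.38, 7.32, 7.62, 6.04 and 4.88 TPM in null replicates 1 to 5. Most of this TPM lay in a transcript that ends before the hairpin. The null values spanned the whole wild-type range, with the lowest value in null replicate 5 and the highest in null replicate 3. The mean was 6.22 ± 0.608 TPM in wild-type mice and 6.25 ± 1.20 TPM in nulls (SD, n = 5), and the log2 change was -0.0058 (SE 0.135, 95% interval -0.30 to 0.29, limma adjusted p = 0.994). Its sign turned under other scalings, to 0.039 with median ratio scaling and 0.073 with quantile normalization or after removal of haemoglobin genes. That transcript, Dvl2-201, holds neither the site nor the hairpin and carried 78.4% to 95.7% of Dvl2 TPM. It averaged 5.44 ± 0.646 TPM in wild-type mice and 5.39 ± 0.637 TPM in nulls.

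Dvl1 (ENSMUSG00000029071, chr4:155847402-155859303, plus strand) stood at 23.8, 14.9, 13.0, 12.9 and 16.1 TPM in the wild-type and 14.0, 19.3, 21.9, 11.1 and 10.8 TPM in the null mice. Wild-type replicate 1 was the highest and null replicate 3 the next, and the groups overlapped. Means were 16.1 ± 4.51 and 15.4 ± 4.98 TPM (SD, n = 5), a log2 change of -0.08 (SE 0.219, limma adjusted p = 0.944) that was 0.06 without wild-type replicate 1 and 0.0053 after removal of haemoglobin genes. Dvl3 (ENSMUSG00000003233, chr16:20516982-20534010, plus strand) stood at 10.9, 9.25, 9.92, 8.50 and 11.0 TPM in the wild-type mice, and at 9.21, 11.4, 10.3, 7.50 and 7.02 TPM in the null mice. Null replicates 4 and 5 were below every wild-type mouse and null replicate 2 above. Means were 9.91 ± 1.06 and 9.09 ± 1.85 TPM (SD, n = 5), a log2 change of -0.13 (SE 0.140, limma adjusted p = 0.809) that was -0.048 without null replicate 5.

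**Figure D1:**
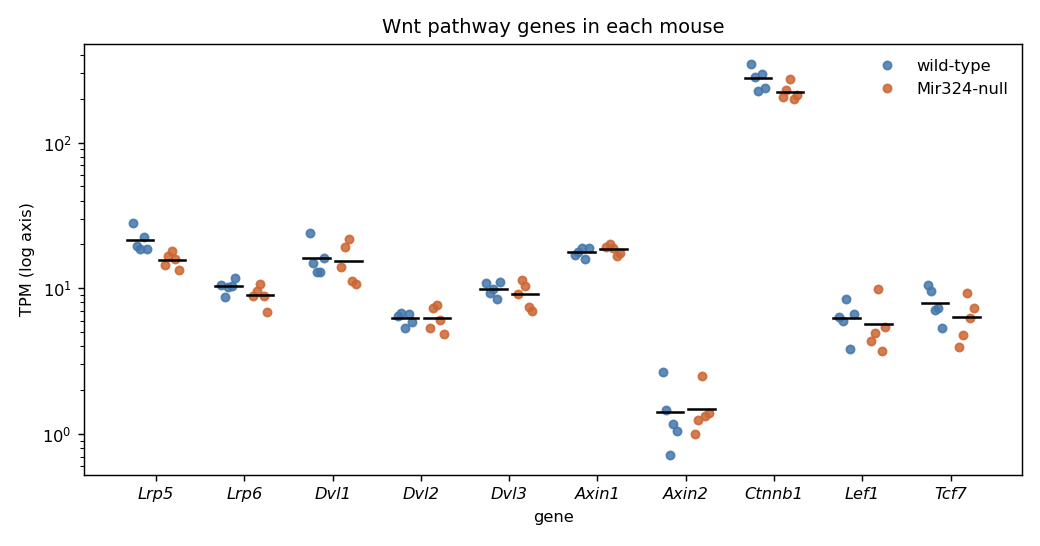
TPM of the 10 members on a logarithmic axis, wild-type and Mir324-null, each point 1 mouse and each bar a group mean. Lrp5 is the member whose null mice (13.4 to 18.1 TPM) all lie below the wild-type mice (18.5 to 28.1 TPM).

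The balance within the family was compared as ratios within a library, which do not depend on how libraries are scaled. The Dvl2 share was 1.03 percentage points higher in null mice (two-sided exact permutation test over 252 splits, p = 0.563, adjusted by Benjamini-Hochberg over 6 balance measures to 0.873), a difference that was 0.0421 points when wild-type replicate 1 was left out and 2.05 when replicate 4 was. The log2 ratio of Dvl2 to Dvl1 was -1.34 ± 0.356 in wild-type and -1.27 ± 0.253 in null mice (SD, n = 5, exact permutation p = 0.730, adjusted 0.873), but its difference of 0.077 turned to -0.059 without wild-type replicate 1. That of Dvl2 to Dvl3 was -0.67 ± 0.256 against -0.54 ± 0.179 (SD, n = 5, exact permutation p = 0.357, adjusted 0.873). These differences were within the spread between mice, and the smallest p the test can give is 0.00794.

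**Figure D2:**
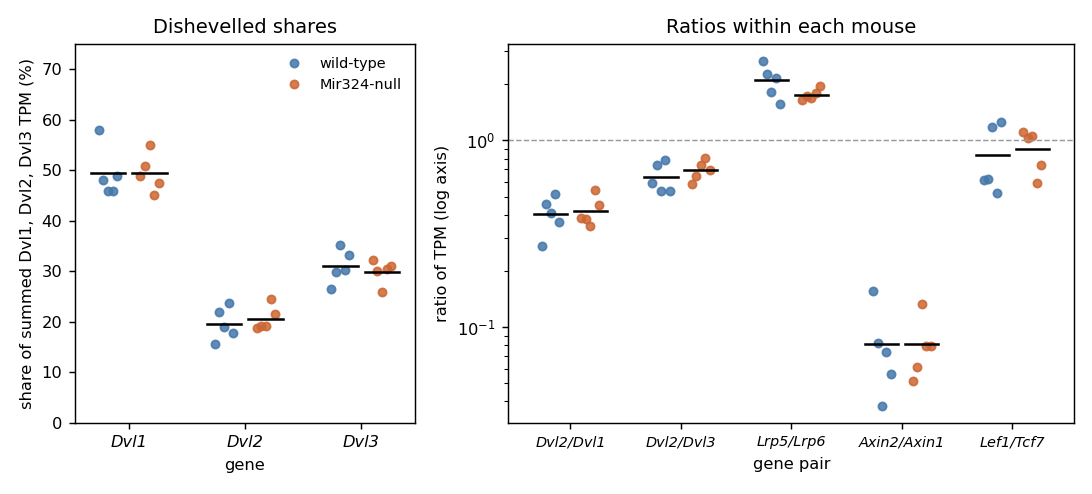
Left, percent of the summed Dishevelled TPM held by each Dishevelled gene; right, ratios of TPM between members on a logarithmic axis, each point 1 mouse and each bar the mean of a genotype. Dvl2 is the smallest share in every mouse, and Lrp5 exceeds Lrp6 in all 10, at ratios of 1.57 to 2.66 in wild-type and 1.65 to 1.95 in null mice.

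Of the co-receptors, Lrp5 was the more abundant and the member furthest apart between genotypes, while the genotypes overlapped in Lrp6. The main transcript of Lrp6 carries a miR-324-3p seed match, and whether miR-324 acts on it was not tested. Both genes encode single-pass receptors that bind Axin once a Wnt ligand is engaged, and Lrp5 is known as a determinant of bone mass. Lrp5 (ENSMUSG00000024913, chr19:3584828-3686564, minus strand) stood at 28.1, 19.5, 18.5, 22.5 and 18.6 TPM in the wild-type mice, and at 14.5, 16.6, 18.1, 15.9 and 13.4 TPM in the null mice. Every null mouse was below every wild-type mouse, a separation in that direction found for 1.06% of all genes. Means were 21.4 ± 4.04 and 15.7 ± 1.85 TPM (SD, n = 5), a log2 change of -0.42 (SE 0.131, 95% interval -0.70 to -0.13). It did not pass adjustment over all genes (limma adjusted p = 0.319), and the change was -0.32 without wild-type replicate 1. The osteoblast and osteocyte marker sum stood at 12100, 5230, 7662, 12713 and 8098 TPM in wild-type replicates 1 to 5 and at 2990, 4835, 5971, 5149 and 3190 TPM in null replicates 1 to 5. Wild-type replicates 1 and 4 were highest and null replicates 1 and 5 lowest both in this sum and in Lrp5. These 2 wild-type mice were also highest in the chondrocyte sum (2192 and 1468 TPM) and in a sum of 5 fibroblast markers (5144 and 3884 TPM). Nearly all of that fibroblast sum was Prg4, at 5075 and 3821 TPM in these mice. Of the 5 genes, 2 (Prg4 and Pdgfra) were lower on average in null mice, and Dpt, Clec3b and Pi16 were higher. The lowest chondrocyte sum was in wild-type replicate 3 (803 TPM) and the lowest fibroblast sum in null replicate 5 (1381 TPM). The part of any of these cells in the Lrp5 difference was not tested.

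Lrp6 (ENSMUSG00000030201, chr6:134446476-134566965, minus strand) stood at 10.6, 8.66, 10.2, 10.4 and 11.8 TPM in the wild-type mice, and at 8.81, 9.62, 10.7, 8.91 and 6.84 TPM in the null mice. The groups overlapped, with the lowest value in null replicate 5. Means were 10.3 ± 1.13 and 8.98 ± 1.42 TPM (SD, n = 5), a log2 change of -0.19 (SE 0.127, 95% interval -0.47 to 0.09, limma adjusted p = 0.623), and -0.10 without null replicate 5. The site-bearing transcript Lrp6-201 averaged 7.40 ± 0.643 TPM in wild-type mice and 6.34 ± 1.18 TPM in nulls. The log2 ratio of Lrp5 to Lrp6 was 1.04 ± 0.291 in wild-type and 0.81 ± 0.0954 in null mice, lower by 0.23, and in each of the 5 null mice under the wild-type average (exact permutation p = 0.127, adjusted 0.762 over 6 measures, SD, n = 5). Wild-type replicate 1 had the highest ratio, 2.66, and without it the difference was -0.14.

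Over protein-coding transcripts alone, the ratio of Lrp5 to Lrp6 passed the test when adjusted within that setting. The result rests on how the program split reads between coding and other transcripts of each gene. The adjustment did not cover the other settings tried, among them all transcripts, where the ratio did not pass. It was 1.86, 2.15, 1.80, 2.09 and 1.77 in wild-type and 1.46, 1.53, 1.54, 1.76 and 1.49 in null mice on the linear scale. The groups did not overlap, though wild-type replicate 5 and null replicate 4 were nearly level. The log2 ratio was lower by 0.31 in null mice (0.95 ± 0.128 against 0.64 ± 0.107, SD, n = 5, exact permutation p = 0.00794, adjusted 0.0476). This exact p is the smallest the test can give, and no other of the 6 measures reached it. The adjusted p was 0.0476 again without any 1 null mouse and 0.0952 without any 1 wild-type mouse. Left out in that setting were the retained-intron transcripts of Lrp6 and Lrp5-203, an Lrp5 transcript annotated for nonsense-mediated decay, which averaged 6.49 ± 3.22 TPM in wild-type mice and 4.98 ± 0.635 TPM in nulls. The coding transcript Lrp5-201 averaged 14.7 ± 1.32 and 10.5 ± 2.04 TPM, with wild-type mice at 13.4 to 16.6 and null mice at 7.53 to 12.5. Summed over coding transcripts, Lrp5 had a log2 change of -0.46 (SE 0.133, limma adjusted p = 0.222).

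Downstream of the receptors, Axin1 differed by less than the spread between mice and Ctnnb1 was lower in null mice without passing adjustment. Axin1 is the scaffold on which the destruction complex is built. Axin1 (ENSMUSG00000024182, chr17:26138688-26195811, plus strand) stood at 17.0, 17.8, 18.8, 15.8 and 18.8 TPM in the wild-type mice, and at 19.3, 20.2, 19.0, 16.7 and 17.4 TPM in the null mice. It varied least of the members between mice, with a coefficient of variation of 7.29% in wild-type and 7.66% in null mice. Means were 17.6 ± 1.29 and 18.5 ± 1.42 TPM (SD, n = 5), a log2 change of 0.07 (SE 0.0923, 95% interval -0.14 to 0.27, limma adjusted p = 0.861).

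Ctnnb1 (ENSMUSG00000006932, chr9:120929216-120960507, plus strand) encodes β-catenin, which also anchors cadherins at cell junctions, and was the most abundant member. It stood at 349, 281, 228, 297 and 237 TPM in the wild-type mice, and at 204, 230, 272, 198 and 212 TPM in the null mice. Each of the 5 null mice lay under the wild-type average, and null replicates 2 and 3 lay within the wild-type range. Means were 278 ± 48.9 and 223 ± 29.8 TPM (SD, n = 5), a log2 change of -0.31 (SE 0.129, limma adjusted p = 0.391) that was -0.22 without wild-type replicate 1. Coding transcripts held 49.3% ± 6.79 of Ctnnb1 TPM in wild-type and 52.7% ± 5.42 in null mice, and nearly all of the rest was assigned to transcripts that retain an intron. The retained-intron transcript Ctnnb1-215 averaged 106 ± 33.7 TPM in wild-type mice and 77.6 ± 10.7 TPM in nulls, and the coding transcript Ctnnb1-201 averaged 128 ± 7.14 and 111 ± 23.5 TPM. Over coding transcripts alone the log2 change of Ctnnb1 was -0.21 (limma adjusted p = 0.483).

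**Figure D3:**
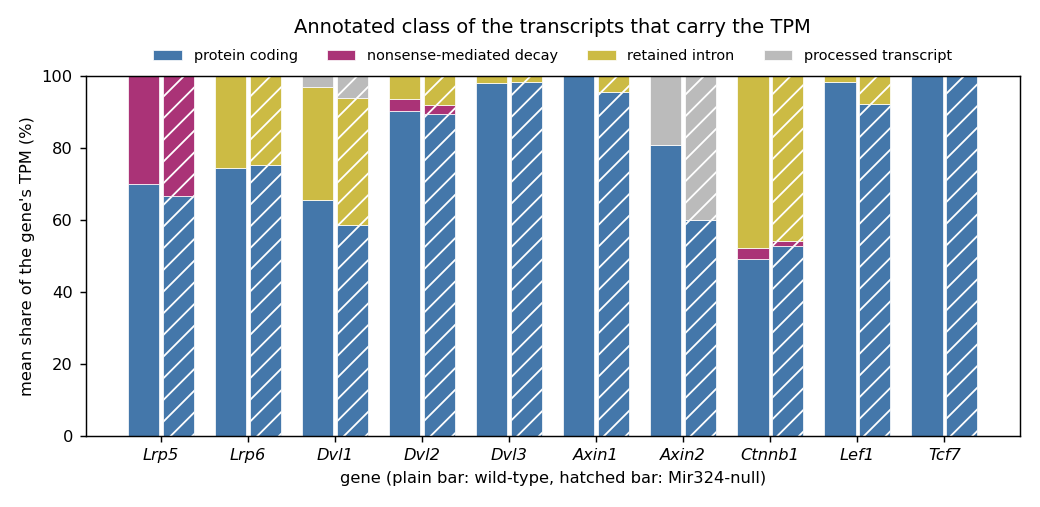
Mean percent of each member's TPM by annotated transcript class (protein coding, nonsense-mediated decay, retained intron, processed transcript), with plain bars for wild-type and hatched bars for Mir324-null (n = 5 each). Coding transcripts hold 49.3% and 52.7% of Ctnnb1 against 100% of Tcf7 in both genotypes.

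The transcript classes differed widely between members. Coding transcripts held 65.6% of Dvl1 TPM in wild-type and 58.7% in null mice, 90.5% and 89.6% of Dvl2, and 98.2% and 98.5% of Dvl3. They held 70.0% and 66.7% of Lrp5, with the rest in transcripts marked for decay, and 74.4% and 75.2% of Lrp6, with the rest in retained-intron transcripts. Such assignments among overlapping transcripts are estimates of the quantification program.

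Axin2, Lef1 and Tcf7 did not pass the test, and the genotypes overlapped in each of them. Axin2 (ENSMUSG00000000142, chr11:108920349-108950783, plus strand), the feedback scaffold, was the lowest member. It stood at 2.66, 1.47, 0.715, 1.16 and 1.05 TPM in the wild-type mice, and at 0.994, 1.24, 2.51, 1.32 and 1.39 TPM in the null mice. A single mouse of each genotype, wild-type replicate 1 and null replicate 3, was above 2 TPM. In these mice 1.42 and 1.12 TPM lay in Axin2-203, annotated as a processed transcript and not as coding. Coding transcripts held 81.0% ± 25.1 of Axin2 TPM in wild-type and 60.0% ± 16.7 in null mice. They summed to 1.01 ± 0.248 and 0.882 ± 0.369 TPM (SD, n = 5). Means were 1.41 ± 0.748 and 1.49 ± 0.591 TPM (SD, n = 5), a log2 change of 0.07 (SE 0.226, 95% interval -0.43 to 0.56, limma adjusted p = 0.954) that was 0.23 without wild-type replicate 1. The log2 ratio of Axin2 to Axin1 was -3.78 ± 0.754 against -3.71 ± 0.515 (SD, n = 5, exact permutation p = 0.873, adjusted 0.873), while its difference of 0.075 turned to -0.25 over coding transcripts alone (exact permutation p = 0.413, adjusted 0.571).

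Lef1 (ENSMUSG00000027985, chr3:131110471-131224356, plus strand) stood at 6.39, 5.96, 8.38, 3.85 and 6.69 TPM in the wild-type mice, and at 4.33, 4.92, 9.88, 3.73 and 5.39 TPM in the null mice. Null replicate 3 was the highest of all 10, and it also had the highest precursor B cell sum of the null mice, 579 TPM. Whether those cells account for its Lef1 value was not tested. Means were 6.25 ± 1.63 and 5.65 ± 2.45 TPM (SD, n = 5), a log2 change of -0.16 (SE 0.234, limma adjusted p = 0.868) that was -0.35 without null replicate 3 and -0.052 without null replicate 4. Tcf7 (ENSMUSG00000000782, chr11:52252371-52283014, minus strand) stood at 10.5, 9.60, 7.12, 7.38 and 5.33 TPM in the wild-type mice, and at 3.93, 4.80, 9.34, 6.30 and 7.34 TPM in the null mice. The groups overlapped over most of their range, with null replicates 1 and 2 below every wild-type mouse. Means were 7.98 ± 2.06 and 6.34 ± 2.13 TPM (SD, n = 5), a log2 change of -0.31 (SE 0.219, 95% interval -0.79 to 0.17, limma adjusted p = 0.648), and -0.18 without null replicate 1. Wild-type replicates 1 and 2, highest in Tcf7, also had the highest T cell sums, 134 and 106 TPM. Null replicates 1 and 2, lowest in Tcf7, had sums of 89.6 and 86.5 TPM, above those of wild-type replicates 3 to 5 (84.9, 57.3 and 66.8 TPM). The part of those cells was not tested. Lef1 exceeded Tcf7 in 5 of 10 libraries, and their log2 ratio was -0.35 ± 0.591 in wild-type and -0.19 ± 0.394 in null mice (SD, n = 5, exact permutation p = 0.627, adjusted 0.873), with a difference of 0.17 that was 0.020 when wild-type replicate 4 was left out and 0.34 when replicate 5 was.

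**Figure D4:**
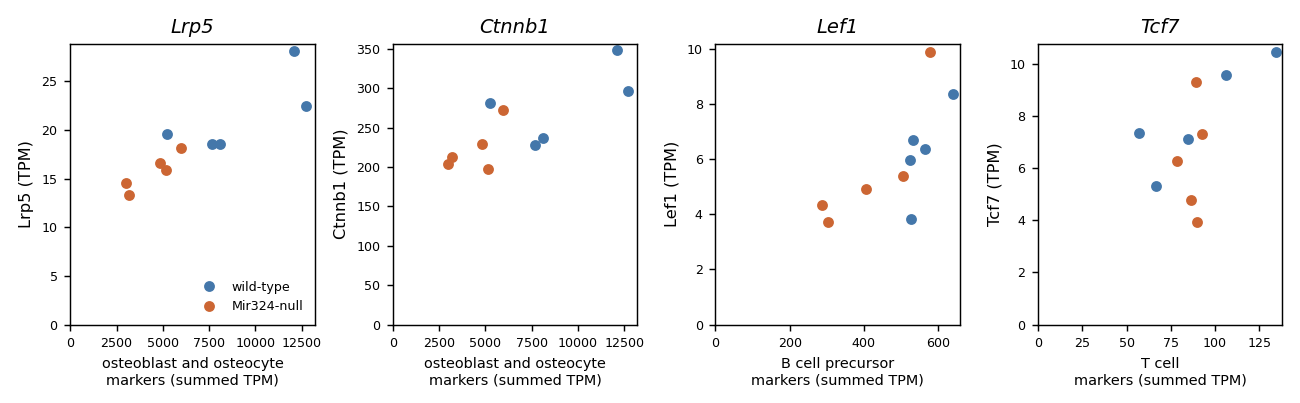
TPM of Lrp5, Ctnnb1, Lef1 and Tcf7 (vertical axes) against the summed TPM of marker lists (horizontal axes), each point 1 mouse, wild-type or Mir324-null. The mice with the highest osteoblast and osteocyte sums, wild-type replicates 1 and 4, also have the highest Lrp5, and null replicates 1 and 5 are lowest in both. Wild-type replicates 1 and 4 are also highest in the chondrocyte marker sum and in the fibroblast marker sum, which is nearly all Prg4. Neither of these sums is plotted.

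Ordered by wild-type mean TPM, which is corrected for length, the members ran Ctnnb1, Lrp5, Axin1, Dvl1, Lrp6, Dvl3, Tcf7, Lef1, Dvl2, Axin2. Over the 10 libraries the ranges of neighbours in this order were apart only between Ctnnb1 and Lrp5 and between Dvl2 and Axin2. Dvl1 exceeded Lrp6 in all 10 libraries although their ranges overlapped. The null means placed Axin1 above Lrp5, Dvl3 above Lrp6 and Dvl2 above Lef1.

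The wider pathway was described with 115 further genes in 7 lists, of which 84 were tested. Of these, 66 had an estimate below 0 (78.6%, against 60.0% of all genes), with a median log2 change of -0.18. At an unadjusted p under 0.05 there were 15 lower (17.9%, against 7.30% of all genes) and 6 higher (against 4.28%), and 0 passed adjustment. Without wild-type replicate 1 the median was -0.115, 60 of the 84 were below 0, and 11 rather than 21 had an unadjusted p under 0.05. Of all genes, 7461 rather than 8307 were then below 0, and 1147 rather than 1603 had such a p. Under other scalings 58 to 62 of the 84 were below 0, with medians of -0.14 to -0.095, beside 5876 to 6828 of all genes.

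Of the Wnt ligand, R-spondin and secretion genes, 10 of 11 tested were below 0 (9 after quantile normalization), with a median log2 change of -0.45 that was -0.27 without wild-type replicate 1, and 3 had an unadjusted p under 0.05. Wnt5b, a ligand of growth cartilage, averaged 5.39 ± 1.44 TPM in wild-type mice and 2.86 ± 0.928 TPM in nulls (SD, n = 5, log2 change -0.72, limma adjusted p = 0.308). Wnt4, another ligand, averaged 3.54 ± 1.22 and 2.26 ± 0.472 TPM (-0.45, adjusted p = 0.380, and -0.31 without wild-type replicate 1). Wls, which carries Wnt proteins to the surface, averaged 35.8 ± 3.91 and 30.9 ± 5.61 TPM. All 12 Frizzled and other receptor genes tested were below 0 (median -0.35, 4 at an unadjusted p under 0.05), and 11 of 12 were so without wild-type replicate 1 or after quantile normalization. Fzd4 averaged 4.00 ± 0.405 and 2.83 ± 0.722 TPM (-0.40, limma adjusted p = 0.350), and Fzd5 5.47 ± 0.758 and 4.07 ± 0.658 TPM (-0.35, adjusted p = 0.358). Ryk, a Wnt receptor with a kinase-like domain, averaged 22.0 ± 5.91 and 14.7 ± 4.75 TPM (-0.55, adjusted p = 0.366). Lgr6, an R-spondin receptor, averaged 14.1 ± 6.94 and 9.29 ± 1.47 TPM, with a log2 change of -0.46 that was -0.22 without wild-type replicate 1.

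Genes listed as extracellular Wnt antagonists were below 0 in 10 of 11 cases (median -0.49, and -0.19 without wild-type replicate 1), with 4 at an unadjusted p under 0.05. Sost, the osteocyte product sclerostin that blocks Lrp5 and Lrp6, averaged 215 ± 113 TPM in wild-type mice and 117 ± 57.1 TPM in nulls (SD, n = 5, -0.87, limma adjusted p = 0.410, and -0.61 without wild-type replicate 1). Dkk1, which also binds these co-receptors, averaged 22.4 ± 7.23 and 11.8 ± 5.34 TPM (-0.92, adjusted p = 0.324). The Wnt-binding antagonists Wif1 (131 ± 44.8 and 82.8 ± 25.2 TPM) and Sfrp4 (36.7 ± 8.03 and 25.6 ± 5.98 TPM) had log2 changes of -0.63 and -0.50. Sost and Dkk1 are made by osteocytes and osteoblasts. Markers of these cells and of chondrocytes were lower in null mice, as given above, and the part of either in the ligand, receptor, antagonist and target values was not tested.

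The destruction complex partners had a median log2 change of -0.087 (8 of 10 below 0, and 5 to 6 under other scalings). Btrc, the ubiquitin ligase subunit that recognises phosphorylated β-catenin, averaged 24.3 ± 4.12 TPM in wild-type mice and 30.1 ± 1.71 TPM in nulls (SD, n = 5, 0.31, limma adjusted p = 0.351), and the kinase gene Gsk3a 66.5 ± 7.13 and 71.7 ± 3.39 TPM (0.11, adjusted p = 0.693). Tnks2, a tankyrase that promotes the breakdown of Axin, averaged 32.3 ± 4.32 and 28.6 ± 3.32 TPM (-0.17, limma adjusted p = 0.639). Dishevelled partners had a median of -0.080, with 6 of 15 above 0, of which 3 had an unadjusted p under 0.05. Vangl1, a planar polarity protein that binds Dishevelled, was at 9.29 to 15.4 TPM in wild-type mice and 16.8 to 18.5 TPM in nulls. Every null mouse was above every wild-type mouse, as for 0.881% of all genes. The log2 change of Vangl1 was 0.55 (SE 0.128, limma adjusted p = 0.277), the smallest p of the pathway genes, and it was 0.48 without wild-type replicate 1. Daam1, a formin that Dishevelled activates towards actin, averaged 14.4 ± 2.81 and 18.9 ± 1.62 TPM (0.39, limma adjusted p = 0.341). Erythroid markers were also higher in null mice, as given above. The part of those cells in the genes higher in null mice, Ctbp1, Myc and Klhl12 below among them, was not tested.

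Nuclear co-factors had a median of -0.12, with 9 of 15 below 0, and 0.014 without wild-type replicate 1. Ctbp1, a co-repressor, was at 145 to 185 TPM in wild-type mice and 190 to 218 TPM in nulls, again without overlap (log2 change 0.23, SE 0.0855, limma adjusted p = 0.350). Tcf7l1, a mostly repressive relative of Tcf7, averaged 6.02 ± 1.16 and 4.38 ± 1.20 TPM (-0.40, limma adjusted p = 0.427). The abundant kinase genes Csnk1a1, Csnk1d and Csnk2a1 and the co-repressor gene Tle5 had estimates near 0, with log2 changes of -0.0019, 0.05, 0.07 and 0.02 whose signs each turned when 1 mouse was left out. Of the genes listed as Wnt targets, 8 of 10 were below 0 (median -0.31), and at an unadjusted p under 0.05 there were 3 lower and 1 higher. Ccn4, a matricellular protein, averaged 21.5 ± 6.02 and 11.5 ± 4.37 TPM (-0.87, limma adjusted p = 0.291), and the receptor gene Tnfrsf19 20.9 ± 5.43 and 13.6 ± 2.96 TPM (-0.57, adjusted p = 0.335). Myc, a growth regulator with many inputs, was on the other side of 0 at 25.0 ± 4.22 and 30.6 ± 3.18 TPM (0.29, limma adjusted p = 0.416).

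**Figure D5:**
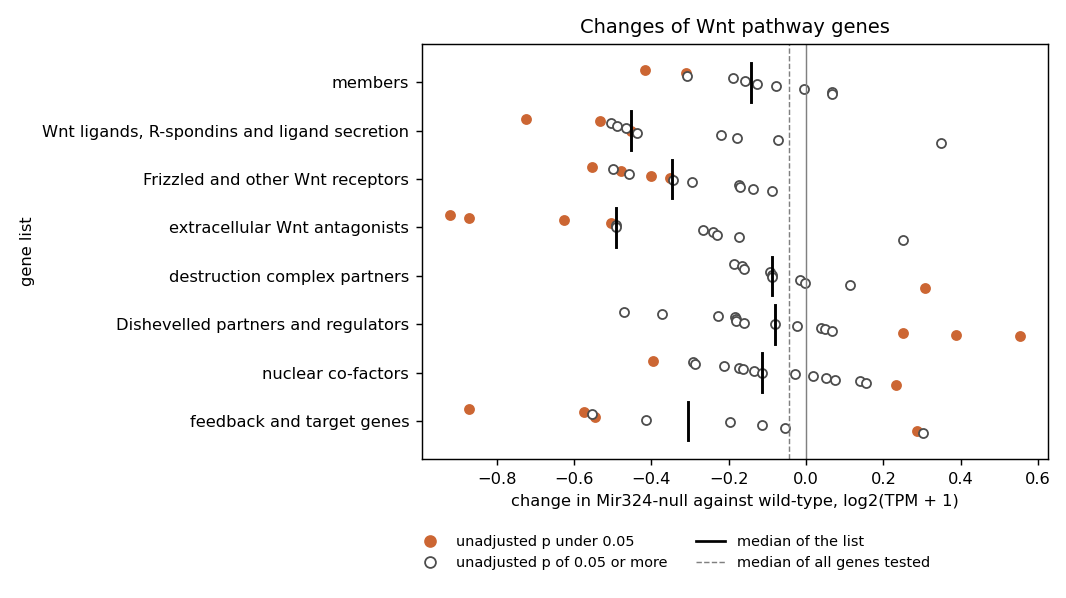
Change (null minus wild-type, log2(TPM + 1)) of the tested members and pathway genes by list, each point 1 gene, filled where the unadjusted p is under 0.05, with a bar at each list's median and a dashed line at the median of all genes. All 12 receptor genes and 10 of 11 ligand and antagonist genes lie below 0 (after quantile normalization, 11 receptor, 9 ligand and 10 antagonist genes), and Vangl1 is at 0.55.

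The genes whose level followed that of a member most closely were sought among all genes tested, by Pearson correlation of log2(TPM + 1) over the 10 libraries, given as a description. For Dvl2 these were Tmem258 (r = 0.975), Tsen34 (0.932) and Ttl (0.921). Closest to Lef1 were BC048403 (0.940), Nnt (0.935) and Uprt (0.935), and closest to Tcf7 were Prag1 (0.954), Sat2 (0.949) and Angpt4 (0.943). The points share the 10 libraries and their common scaling.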

How the data were processed

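The authors deposited 1 table of TPM values per Ensembl mouse transcript, with a column for each of the 10 mice. Per the submitters' processing notes, kallisto and DESeq2 were used, with no role or version given, and the build is named as GRCh38, a human build, although the identifiers are mouse. Each column summed to 1000000 TPM. No read counts follow from TPM, so depth is unknown.

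Transcripts were matched without version numbers to GENCODE M21 (GRCm38): 115440 of 116912 matched, and the other 1472 held 0.275% to 0.356% of a library. TPM was summed per gene. Genes averaging 1 TPM or more were compared with limma 3.58.1 (R 4.3.3, trend, two-sided, Benjamini-Hochberg over 13841 genes, threshold 0.05) on log2(TPM + 1), with all 10 libraries and no covariate. The 6 balance measures were compared with exact permutation tests, by enumerating every split, in Python 3.11.15 with numpy 2.4.6. Annotated 3′ UTRs were searched for both seeds, with mature sequences from RefSeq. The fit was tested on simulated data.

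Named pathway genes were the 2 most abundant and the 2 with the smallest p of each list, and the 3 closest in pattern to Dvl2, Lef1 and Tcf7. The members and lists were chosen with earlier results of these data known. The alternatives tried were other scalings, pseudocounts, filters, a replicate block, each mouse left out and coding transcripts alone. Levels of Mir324 were not used here, and the genotype labels could not be set against them. Nothing in the labels says whether mice shared a litter or a batch.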

Additional observations from a re-analysis of the deposited data

Results flagged for a closer look

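In 82 groups of 5 mice checked with Dixon's criterion (critical value 0.71), 4 held a single mouse apart from the rest, where chance would flag about 1 in 20 groups. Null replicate 3 was the mouse in 3 of them: Axin2 was 2.51 TPM against 0.994 to 1.39 in the other null mice, Lef1 was 9.88 TPM against 3.73 to 5.39, and Wnt4 was 3.08 TPM against 1.93 to 2.22. In the remaining group, Ctbp1 was 218 TPM in null replicate 5 against 190 to 197 in the other null mice.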

How the results depend on the processing

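The count of genes past the threshold was 0 in all settings with all 10 mice and ranged from 0 to 1 when 1 mouse was left out, with 1 gene without wild-type replicate 3, wild-type replicate 4 or null replicate 1. No member and no other pathway gene passed in any setting run. Signs turned for estimates near 0: Dvl1 (0.0053 without haemoglobin genes), Dvl2 (0.039 with median ratio scaling, 0.073 with quantile normalization and 0.073 without haemoglobin genes), Csnk1a1 (-0.0019, and 0.052, 0.0077 and 0.088 in the same order), and, over coding transcripts alone, Csnk1d (-0.029) and the Axin2 to Axin1 ratio (-0.25). Over coding transcripts alone the Lrp5 to Lrp6 ratio passed at -0.31 (exact permutation test, adjusted p = 0.0476 over the 6 measures of that setting only). With 1 mouse left out as well, chosen after seeing the data, it passed again at -0.29, -0.30, -0.30, -0.35 and -0.29 without null replicates 1 to 5. It did not pass when any 1 wild-type mouse was left out (-0.34 to -0.27), where the exact permutation p was 0.0159 rather than 0.00794. The cause was not tested. With 1 mouse left out, values that crossed 0 lay between -0.21 and 0.064 for Dvl1, -0.072 and 0.065 for Dvl2, -0.064 and 0.23 for Axin2, -0.032 and 0.031 for Csnk1a1, -0.012 and 0.13 for Csnk1d, -0.0046 and 0.12 for Csnk2a1, -0.028 and 0.084 for Tle5, -0.059 and 0.17 for the Dvl2 to Dvl1 ratio, and -0.16 and 0.35 for the Axin2 to Axin1 ratio. Pathway genes at an unadjusted p under 0.05 numbered 21, and 11, 13, 12, 10 and 29 without wild-type replicates 1, 2 and 4, null replicate 1 and wild-type replicate 3. For all genes these counts were 1603, and 1147, 1401, 1210, 1106 and 1887 in the same order. With any 1 mouse left out they ranged from 10 to 29 for pathway genes and from 1106 to 1927 for all genes. Of the members, 2 had such a p, and 1 in 10 of the other settings. Same-numbered mice did not deviate together (correlations -0.144 to 0.0564). Such correlations cannot show whether these mice shared a litter or were processed together, so pairing stayed unknown. With a replicate block, 0 genes passed, 1168 rather than 1603 had an unadjusted p under 0.05, and no ratio could pass, since 0.0625 is the smallest p that sign flips over 5 pairs can give. The gene fits over coding transcripts alone were added after seeing the data, and Axin2 had no value there or with a minimum of 5 TPM.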

Other observations

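Among pathway genes outside the naming rule, picked after their values were seen, Porcn, which attaches the lipid that Wnt secretion needs, averaged 4.96 ± 1.92 TPM in wild-type mice and 3.02 ± 0.833 TPM in nulls (SD, n = 5, log2 change -0.53, limma adjusted p = 0.398). Lgr4, an R-spondin receptor, averaged 5.56 ± 1.71 and 3.64 ± 0.733 TPM (-0.48, limma adjusted p = 0.366). Bambi, a pseudoreceptor for TGF-β ligands, averaged 9.77 ± 3.18 and 6.22 ± 1.34 TPM (-0.55, limma adjusted p = 0.358). Klhl12, an adaptor of a ubiquitin ligase that acts on Dishevelled, averaged 16.9 ± 2.41 and 20.2 ± 0.878 TPM (0.25, limma adjusted p = 0.388).

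The TPM of Lef1 was spread over several coding transcripts and that of Tcf7 over 2. Lef1-203 averaged 2.93 ± 0.899 TPM in wild-type mice and 2.62 ± 1.63 TPM in nulls, Lef1-201 1.34 ± 1.06 and 2.37 ± 1.66 TPM, and Lef1-202 1.33 ± 1.22 and 0.144 ± 0.270 TPM (SD, n = 5). Tcf7-201 averaged 6.15 ± 2.15 and 4.66 ± 1.54 TPM, and Tcf7-202 1.83 ± 0.502 and 1.68 ± 0.650 TPM (SD, n = 5). These transcripts were not tested singly.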
